A study of Mus musculus with 6 samples.

Results

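The BCL2 family of apoptosis regulators was examined here through 10 of its genes: Bcl2, Bcl2l1 and Mcl1, which encode pro-survival proteins, Bax and Bak1, which encode the effectors of cell death, and Bcl2l11, Bbc3, Pmaip1, Bid and Bad, which encode the BH3-only proteins. The members were found by name: a probe was taken where its annotated symbol, current or older, was 1 of these 10. This gave 22 of the 45281 probes of the array, 2 of them carrying an older name of Bcl2, for 9 of the 10 genes. No probe here carried the name Bax, which says nothing about its expression. Of the 22 probes, 19 were brighter than the background limit of 34.5 on at least 2 arrays, and each of the 9 genes kept at least 1 probe. Each gene is represented by its kept probe of highest mean over all arrays, and its further probes are given beside it.

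Total RNA was read on 6 Illumina bead arrays. It came from CD8+ T cells isolated from spleens of C57BL/6 mice at an age of 6 weeks. The cells of 2 arrays were pre-treated with DMSO, the vehicle, those of 2 with epoxomicin at 0.5 µM, which inhibits the proteasome, and those of 2 with E9 at 1.0 µM, known here by its code and labelled an activator of the proteasome. All 3 groups were then grown for 3 days in medium with IL-2 on antibodies against CD3 and CD28 (5 µg/ml), which activate T cells through the antigen receptor. The design text calls the cells CD8+CD44+ and the arrays biological duplicates. Whether arrays of different groups share a mouse, culture or day is not labelled, so that p-values measure the spread between these samples only.

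BCL2 family proteins decide at the outer membrane of the mitochondrion whether a cell dies. BAX and BAK open pores through which cytochrome c escapes and caspases are set off, BCL2, BCL-XL (from Bcl2l1) and MCL1 hold them in check, and BH3-only proteins such as BIM (from Bcl2l11) bind the pro-survival proteins or set off the effectors. In T cells, BCL2 and MCL1 support survival of resting and memory cells, BCL-XL is induced by activation, and BIM removes many effector cells after a response. MCL1 and several BH3-only proteins are short-lived and broken down by the proteasome, which arrays of RNA cannot show.

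With E9, the pro-survival genes moved in opposite directions: Bcl2 rose, Bcl2l1 fell, and Mcl1 did not pass the test. Of the pro-death genes, Bcl2l11 rose and the others did not pass. With epoxomicin no member passed the test against DMSO, and Bcl2l11 came closest. Genes were tested with limma in 1 model of the 3 groups. With 2 arrays a group, groups that do not overlap are common: this held for 41.9% of all genes between epoxomicin and DMSO, 51.7% between E9 and DMSO and 50.4% between epoxomicin and E9. A gene rose or fell if its adjusted p (Benjamini-Hochberg over 12756 genes) was under 0.05. Log2 fold changes are on the scale of background-corrected intensities with an offset of 50, which makes changes of dim genes smaller, and are given with their standard error (SE) from 2 arrays a group. In bulk RNA, fewer cells that make a transcript and less of it per cell cannot be told apart.

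**Figure D1:**
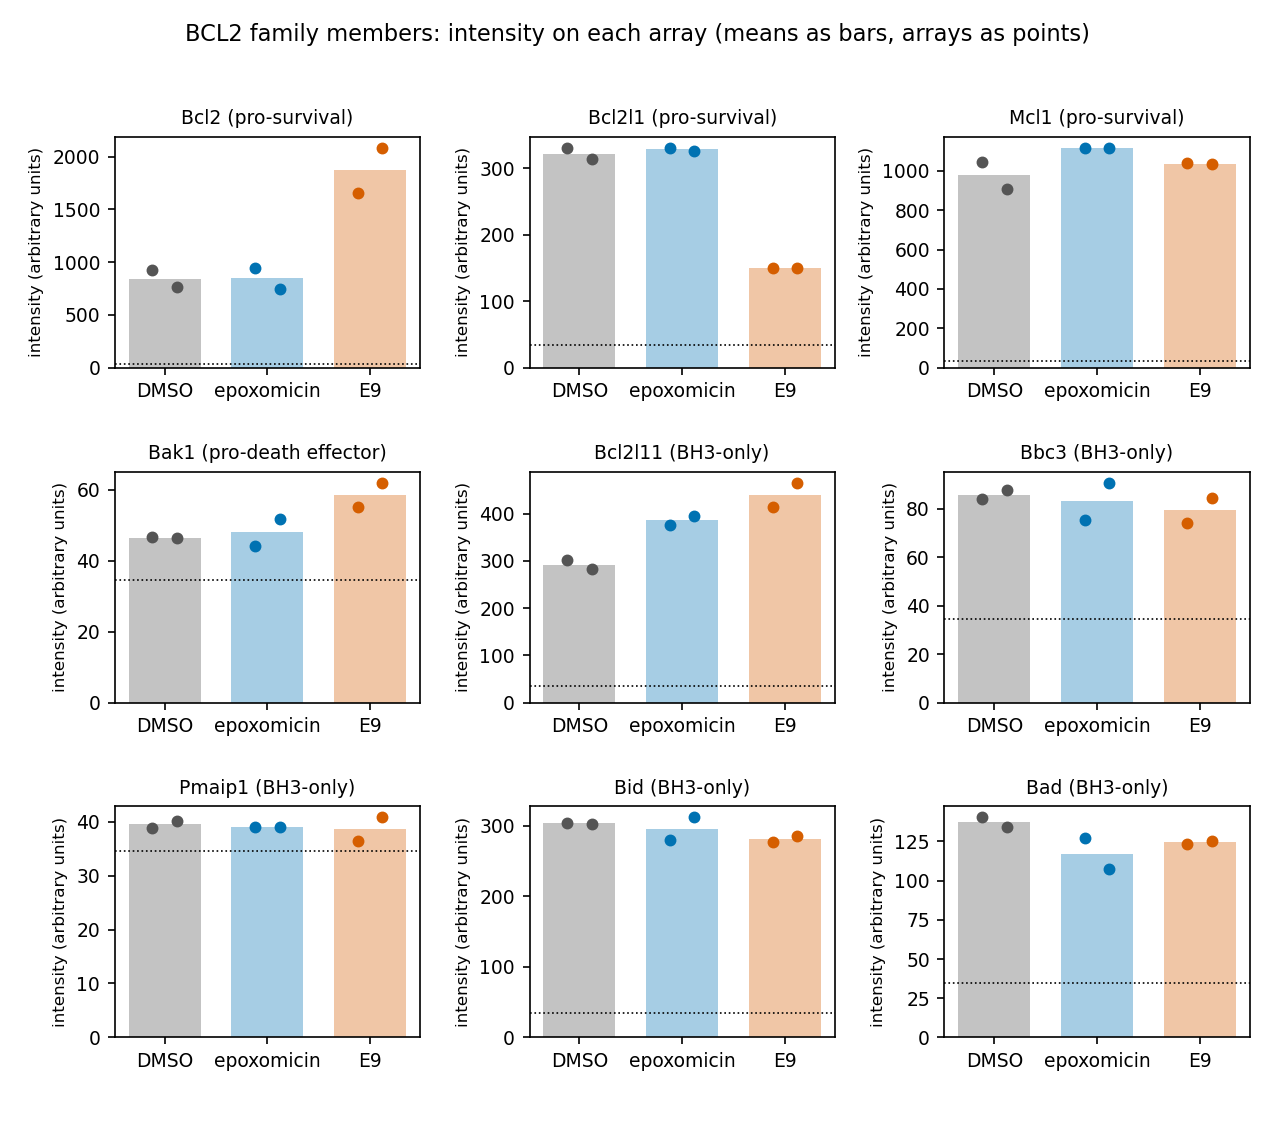
Intensity (arbitrary units, linear axes from 0) of the representing probe of each of the 9 measured members. Points are the 2 arrays of DMSO, epoxomicin and E9, bars their means, and the dotted line the background limit of 34.5. Both E9 arrays lie above the other 4 for Bcl2 and below them for Bcl2l1, and for Bcl2l11 the epoxomicin and E9 arrays lie above both DMSO arrays.

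Regulatory sequence of the 3 members that passed a test is shown because Bcl2 and Bcl2l11 rose with E9 while Bcl2l1 fell. The windows are the 250 bases before a start site in RefSeq, build GRCm38.p6, in which 9 of the 10 members were matched. They are written 5′ to 3′ along the gene, in lower case with motif matches in capitals. The motifs searched on both strands were GTAAACA for FOXO factors, TTCNNNGAA for STAT factors and, for NF-kB, GGG and TTCC with any 3 bases between them. For Bcl2l1 (3 listed windows) and Bcl2l11 (2) the window with a match is shown. That of Bcl2l1 lies within the span of the gene (152758732 to 152833803).
Bcl2, chr1:106714291-106714540, minus strand: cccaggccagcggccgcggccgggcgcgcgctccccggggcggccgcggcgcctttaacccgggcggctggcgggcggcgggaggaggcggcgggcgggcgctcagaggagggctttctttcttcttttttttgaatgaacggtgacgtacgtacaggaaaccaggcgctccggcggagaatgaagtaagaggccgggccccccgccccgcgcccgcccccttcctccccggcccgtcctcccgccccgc
Bcl2l1, chr2:152830718-152830967, minus strand: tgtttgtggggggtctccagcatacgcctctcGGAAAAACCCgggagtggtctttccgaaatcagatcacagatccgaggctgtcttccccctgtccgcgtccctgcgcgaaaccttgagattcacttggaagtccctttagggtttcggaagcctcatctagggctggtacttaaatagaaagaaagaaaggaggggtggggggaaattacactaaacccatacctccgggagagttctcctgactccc
Bcl2l11, chr2:128125788-128126037, plus strand: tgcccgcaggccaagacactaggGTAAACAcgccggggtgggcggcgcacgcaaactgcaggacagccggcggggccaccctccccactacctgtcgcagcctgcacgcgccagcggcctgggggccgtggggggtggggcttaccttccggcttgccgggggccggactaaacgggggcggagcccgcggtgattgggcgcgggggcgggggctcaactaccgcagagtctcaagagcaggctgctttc
The Bcl2l11 window held 1 FOXO match, 221 to 227 bases before the start site, and the Bcl2l1 window 1 NF-kB match on the opposite strand, 209 to 218 bases before it. Of the 32851 windows of that length, 3.17% held the FOXO letters, 4.65% the NF-kB letters and 7.02% the STAT letters. These shares are per window and per motif. A gene with several windows, searched for 3 motifs, is more likely to hold some match, so the shares are no background for the chosen windows. The Bcl2 window held none of the 3 motifs, and no matches overlapped. Among the other members, windows of Mcl1 held the NF-kB letters and those of Bbc3 the NF-kB and the FOXO letters. A match describes letters only and does not show a site in use.

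Bcl2, the founding pro-survival gene, lies on chromosome 1 (106538176 to 106714290 in GRCm38.p6). Its intensity was 925.2 and 760.8 on the DMSO arrays, 946.6 and 746.2 on the epoxomicin arrays and 1660.5 and 2084.7 on the E9 arrays. Both E9 arrays were above all others, while the epoxomicin values spanned those of DMSO. From a mean of 843 ± 116 with DMSO to 1873 ± 300 with E9 (SD, n = 2), Bcl2 rose with a log2 fold change of 1.13 ± 0.139 (SE, limma adjusted p = 0.000481). Against DMSO the log2 fold change with epoxomicin was 0.0025 ± 0.139 (SE, limma adjusted p = 0.997, 95% interval -0.31 to 0.315). In the direct comparison of the compounds, whose doses differ, Bcl2 was lower with epoxomicin than with E9, with a log2 fold change of -1.12 ± 0.139 (SE, limma adjusted p = 0.000552).

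A further kept probe of Bcl2, annotated to another RefSeq transcript of the gene, read 221.7 and 210.4 with DMSO, 158.9 and 172.4 with epoxomicin, and 498 and 467.3 with E9. Its groups did not overlap in any comparison. It rose with E9 as well, with a log2 fold change of 1.07 ± 0.0696 (SE, limma adjusted p = 8.97e-06 over 20349 probes). With epoxomicin the probes of Bcl2 disagreed: this one had a log2 fold change of -0.34 ± 0.0696 (SE) and did not pass (limma adjusted p = 0.0669). The 2 probes under the older name of Bcl2 read between 27.1 and 35.5 and were not above the limit on 2 arrays.

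Bcl2l1, which encodes BCL-XL, lies on chromosome 2 (152758732 to 152833803). Its intensity was 331.1 and 313.9 with DMSO, 330.7 and 326.8 with epoxomicin, and 150.4 and 149.8 with E9. Both E9 arrays were below all others and the epoxomicin arrays lay within the range of DMSO. With E9 it fell, from 322.5 ± 12.2 to 150.1 ± 0.424 (SD, n = 2), with a log2 fold change of -0.99 ± 0.0634 (SE, limma adjusted p = 8.62e-06). With epoxomicin the log2 fold change against DMSO was 0.026 ± 0.0634 (SE, limma adjusted p = 0.939, 95% interval -0.117 to 0.169). Bcl2l1 was higher with epoxomicin than with E9 (log2 fold change 1.01 ± 0.0634 (SE), limma adjusted p = 6.67e-06).

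Bcl2l1 has 2 further probes, both dimmer. One read 96.1 and 107.7 with DMSO, 92.4 and 98.2 with epoxomicin, and 55 and 48.7 with E9, and the other 91.2 and 101.5, 83.4 and 92.1, and 55.6 and 47.4. In both, the E9 arrays were again the lowest. They fell by 0.72 and 0.66 on the log2 scale with E9 (SE 0.0744 and 0.0795, limma adjusted p = 0.000168 and 0.000442 over 20349 probes). The 3 probes are annotated to 1 transcript. Whether they separate the long and short splice forms of the gene could not be told without probe sequences.

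**Figure D2:**
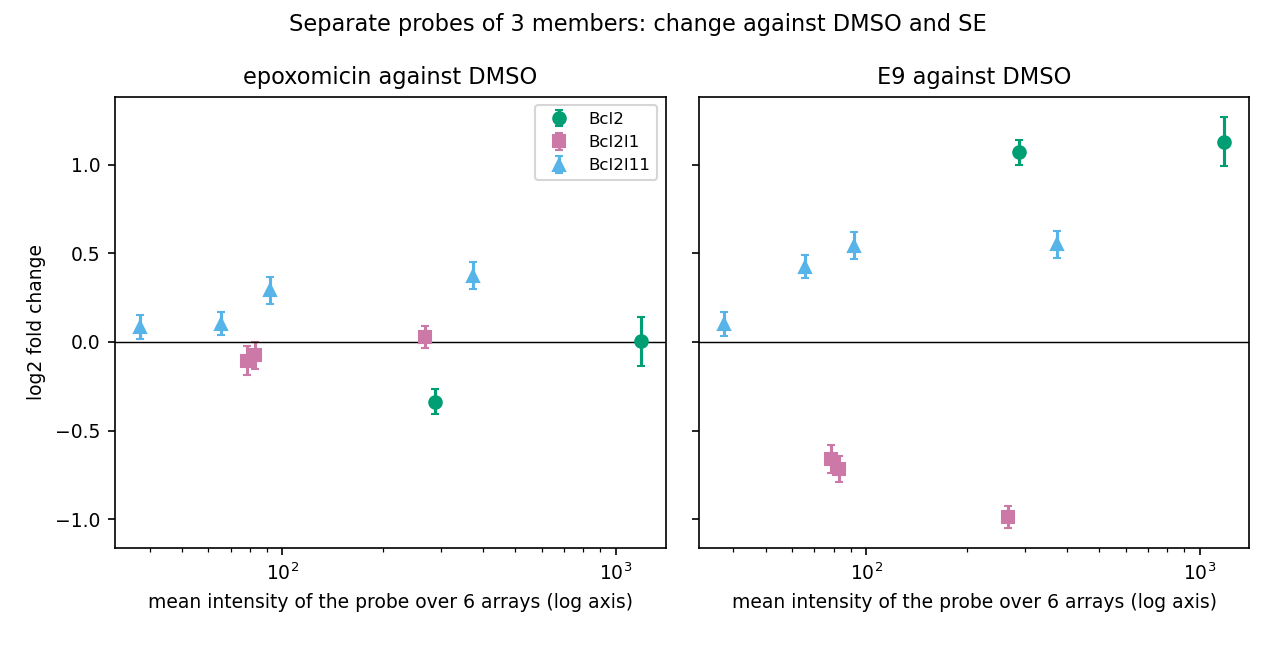
Log2 fold change against DMSO (vertical axis, bars are SE) of each kept probe of Bcl2 (2 probes), Bcl2l1 (3) and Bcl2l11 (4), plotted against the probe's mean intensity over 6 arrays (log axis), with epoxomicin on the left and E9 on the right. With E9 the probes of a gene lie on 1 side of 0, from 1.07 to 1.13 for Bcl2, -0.99 to -0.66 for Bcl2l1 and 0.10 to 0.55 for Bcl2l11, and with epoxomicin the 2 probes of Bcl2 lie apart.

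Mcl1, a pro-survival gene whose protein turns over quickly, lies on chromosome 3 (95656944 to 95663179) and has 1 probe. It read 1044.3 and 910.1 with DMSO, 1114.3 and 1116.8 with epoxomicin, and 1039.5 and 1032.6 with E9. The epoxomicin arrays were above all others, and those of E9 lay within the range of DMSO. No comparison passed: the log2 fold change against DMSO was 0.19 ± 0.0758 with epoxomicin (SE, limma adjusted p = 0.37, 95% interval 0.0191 to 0.36 without adjustment) and 0.086 ± 0.0758 with E9 (SE, limma adjusted p = 0.56, 95% interval -0.0851 to 0.256).

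Among the pro-death effectors, Bak1 on chromosome 17 was measured by 1 dim probe. It read 46.6 and 46.3 with DMSO, 44.2 and 51.7 with epoxomicin, and 55.1 and 62 with E9, so that the E9 arrays were above the rest. Bak1 did not pass with E9 (log2 fold change 0.22 ± 0.0751 (SE), limma adjusted p = 0.0811). Without background correction its log2 fold change was 0.33 (limma adjusted p = 0.0465) and with an offset of 16 it was 0.39 (limma adjusted p = 0.0498), and both passed. With epoxomicin it was 0.028 ± 0.0751 (SE, limma adjusted p = 0.947).

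Of the 5 BH3-only genes, Bcl2l11 on chromosome 2 (128126038 to 128162547) was the one that passed a test in the 3 comparisons. Its protein BIM binds all pro-survival members and is the main trigger of death in lymphocytes deprived of cytokine. It read 301 and 282.9 with DMSO, 375.8 and 396 with epoxomicin, and 414.3 and 465.9 with E9. The 3 groups did not overlap and stood in the order DMSO, epoxomicin, E9. With E9 it rose from 292 ± 12.8 to 440.1 ± 36.5 (SD, n = 2), with a log2 fold change of 0.55 ± 0.0757 (SE, limma adjusted p = 0.000929).

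With epoxomicin, Bcl2l11 had a log2 fold change of 0.37 ± 0.0757 against DMSO (SE, limma adjusted p = 0.0533, 95% interval 0.204 to 0.544 without adjustment), just short of the threshold. It passed when either E9 array was left out or when E9 was left out altogether (limma adjusted p = 0.0259 in each), and with median-centred arrays (limma adjusted p = 0.0499). It did not pass when either DMSO array or either epoxomicin array was left out (limma adjusted p = 0.201 to 0.403), and over all 18 alternatives the adjusted p ran from 0.0259 to 0.403. The difference between epoxomicin and E9 did not pass for this probe (log2 fold change -0.18 ± 0.0757 (SE), limma adjusted p = 0.193), while 1 of the further probes below did separate them.

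Bcl2l11 has 3 further kept probes. The second read 66.8 and 73.2 with DMSO, 90 and 92.8 with epoxomicin, and 122.3 and 105.4 with E9. The third read 54 and 55.1, 57.7 and 63.3, and 83.6 and 80.4 in the same order. Both showed the 3 groups apart in the order DMSO, epoxomicin, E9. Against DMSO these 2 probes rose with E9 (log2 fold changes 0.543 and 0.425, limma adjusted p = 0.00115 and 0.002 over 20349 probes), and with epoxomicin they had 0.29 and 0.10 (limma adjusted p = 0.155 and 0.678). For the third probe epoxomicin was lower than E9 (log2 fold change -0.32, limma adjusted p = 0.011). The fourth probe lay between 33.9 and 40.8, near the limit, with a log2 fold change of 0.10 with E9 (limma adjusted p = 0.412).

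The other 4 BH3-only genes did not pass in any comparison. Bbc3, which encodes PUMA, a target of p53, read 84.1 and 87.7 with DMSO, 75.3 and 90.8 with epoxomicin, and 74.3 and 84.4 with E9. Its log2 fold change against DMSO was -0.041 with epoxomicin and -0.089 with E9 (SE 0.0846). Pmaip1, which encodes NOXA, the partner that directs MCL1 to the proteasome, read from 36.5 to 40.8 over the 6 arrays. Those values lie so near the limit of 34.5 that a fall of Pmaip1 could hardly be seen. Its log2 fold changes were -0.0099 and -0.021 (SE 0.0654).

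Bid, whose protein is cut by caspase-8 and carries death receptor signals to the mitochondrion, read 303.7 and 302.3 with DMSO, 278.8 and 311.4 with epoxomicin, and 276.7 and 284.9 with E9. Its log2 fold change was -0.037 ± 0.0705 with epoxomicin (SE) and -0.10 ± 0.0705 with E9 (SE, limma adjusted p = 0.435, 95% interval -0.26 to 0.0576). Bad, whose protein is held inactive by survival kinases, read 140.3 and 134.4 with DMSO, 127.2 and 107.2 with epoxomicin, and 123.6 and 125.4 with E9. All 4 treated arrays were below both DMSO arrays for Bad, but neither comparison passed, with log2 fold changes of -0.19 ± 0.078 for epoxomicin and -0.12 ± 0.078 for E9 (SE, limma adjusted p = 0.378 and 0.402). Further kept probes of Bbc3, Pmaip1 and Bid lay between 30.5 and 46 and did not pass either.

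In counts, 0 of the 9 measured members changed with epoxomicin against DMSO, where 1.32% of all 12756 genes changed (0.988% of the 20349 probes taken singly). At an unadjusted p under 0.05, 3 of 9 passed that comparison, Bcl2l11, Mcl1 and Bad, beside 11.4% of all genes. With E9 against DMSO 3 of 9 changed, 2 up and 1 down, where 15.6% of all genes changed (13.4% of probes). Between epoxomicin and E9, 2 of 9 differed, Bcl2 and Bcl2l1, where 13% of all genes did (10.9% of probes). The median log2 fold change over the members was 0.0025 with epoxomicin and -0.021 with E9, beside 0.0021 and -0.0060 over all genes tested. The comparisons with DMSO share its 2 arrays.

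**Figure D3:**
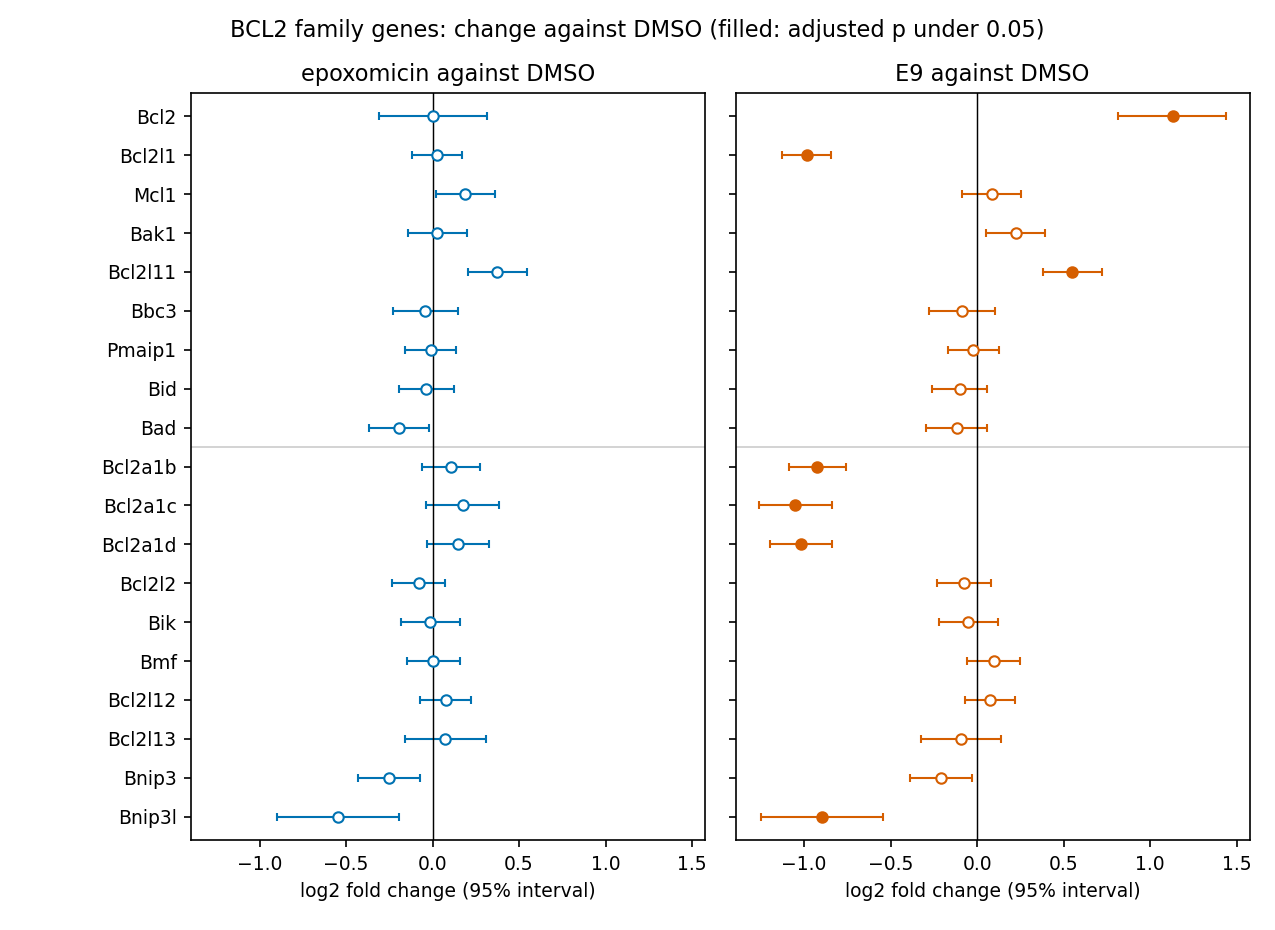
Log2 fold change against DMSO with its 95% interval (horizontal axis, unadjusted) for the 9 members, above the line, and 10 other BCL2 family genes, below it, with epoxomicin on the left and E9 on the right. Filled points have an adjusted p under 0.05. With E9, Bcl2 (1.13) and Bcl2l11 (0.55) lie to the right and Bcl2l1 (-0.99) and the Bcl2a1 genes (-1.05 to -0.93) to the left, and no point is filled with epoxomicin.

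Other BCL2 family genes came from a list of 16, of which 10 were measured. Bcl2a1a had no probe of that name, and Bcl2l10, Bok, Hrk, Bcl2l14 and Bcl2l15 had no probe above the limit on 2 arrays. None of the 10 passed with epoxomicin against DMSO, where 1.32% of all genes changed. With E9 0 rose and 4 fell (7.76% of all genes rose and 7.81% fell there). Between the compounds 3 were higher with epoxomicin than with E9 and 0 lower, where 6.15% of all genes were higher and 6.88% lower. The median log2 fold change of the 10 was 0.039 with epoxomicin and -0.15 with E9. Of the 4 that fell, 3 are the near-identical A1 copies described below, and the same 3 differed between the compounds. These counts and medians may thus hold 1 signal 3 times.

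The genes that fell were 3 copies of the pro-survival gene A1 and Bnip3l. A1, also called BFL1, is an NF-kB target that activation induces in lymphocytes. Bcl2a1d read 4540.6 and 4047.4 with DMSO, 4511.1 and 4992.1 with epoxomicin, and 2128.2 and 2077.1 with E9. Both E9 arrays were far below the other 4, and the log2 fold change with E9 was -1.02 ± 0.0799 (SE, limma adjusted p = 2.8e-05). Bcl2a1b read 3431.8 and 3057.9, 3417 and 3564.1, and 1664 and 1721.4 in the same order, and fell by 0.93 on the log2 scale with E9 (SE 0.0743, limma adjusted p = 3.26e-05). Bcl2a1c had the same shape at lower intensity, with 307.7 and 263.7, 297.4 and 354.5, and 124.5 and 124.4, and fell by 1.05 on the log2 scale (SE 0.0945, limma adjusted p = 6.95e-05).

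Against E9, the 3 A1 genes were higher with epoxomicin by log2 fold changes of 1.03 to 1.22. They are near-identical copies, so that a probe of one may read transcripts of another, and their values are uncertain as separate genes. Bnip3l, whose protein NIX marks mitochondria for autophagy, read 1188.3 and 1154.6 with DMSO, 988.8 and 636.8 with epoxomicin, and 602.9 and 632.5 with E9. The epoxomicin arrays lay far apart for Bnip3l and the E9 arrays were the lowest. It fell by 0.90 on the log2 scale with E9 (SE 0.156, limma adjusted p = 0.00375). The other 6 measured genes, Bcl2l2, Bik, Bmf, Bcl2l12, Bcl2l13 and Bnip3, passed in no comparison.

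Genes of mitochondrial apoptosis and its execution formed a list of 23, of which 19 were measured. Not all act after the BCL2 family: the protein of Casp8 acts before it, on BID. None passed with epoxomicin, where 1.32% of all genes did, and with E9 2 rose and 2 fell, which is near the 15.6% of all genes. Casp6, an executioner caspase, read 321.7 and 272.8 with DMSO, 318 and 262.7 with epoxomicin, and 1021.5 and 1073.2 with E9. Both E9 arrays stood apart from the other 4, and Casp6 rose with a log2 fold change of 1.74 ± 0.1 (SE, limma adjusted p = 4.47e-06). Casp8, the initiator caspase of death receptors that cuts BID, read 442.7 and 498.3, 470.1 and 477.2, and 668.9 and 727. Its log2 fold change with E9 was 0.55 ± 0.0767 (SE, limma adjusted p = 0.00105).

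Birc5, which encodes survivin, an inhibitor of apoptosis also needed for cell division, read 626.3 and 651.1 with DMSO, 543.3 and 538.5 with epoxomicin, and 467.3 and 415.4 with E9. Its 3 groups did not overlap, and it fell by 0.51 on the log2 scale with E9 (SE 0.0726, limma adjusted p = 0.00114). Aifm1, a flavoprotein of the mitochondrion, fell by 0.32 on the log2 scale (limma adjusted p = 0.0436). Between epoxomicin and E9, 13% of all genes differed. Of this list, Birc2 and Birc5 were higher with epoxomicin (log2 fold changes 0.26 and 0.28) and Casp9, Casp6 and Casp8 lower (-0.29, -1.77 and -0.53). The further probes of Birc2, Birc5 and Casp9 did not pass there, and those of Casp6 and Casp8 did. Caspase genes are read here as transcripts, whereas their proteins act only once cut.

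Known regulators of the members formed a list of 26, of which 22 were measured. None passed with epoxomicin, where 1.32% of all genes did. With E9 2 rose and 2 fell, and 2 were higher and 2 lower with epoxomicin than with E9. These counts are near the 15.6% and 13% of all genes that changed in those comparisons. Il7r, the receptor chain for IL-7, a cytokine that sustains Bcl2 in T cells, read 145.9 and 152.9 with DMSO, 185.6 and 169.9 with epoxomicin, and 389.6 and 412.4 with E9. Its E9 arrays were above all others and its log2 fold change with E9 was 1.29 ± 0.07 (SE, limma adjusted p = 3.06e-06). The further kept probes of Il7r were dimmer, with smaller log2 fold changes with E9, from 0.176 to 0.396. The dimmest of them did not pass (limma adjusted p = 0.14 over 20349 probes). Stat5a, a transcription factor that carries IL-2 and IL-7 signals, read 606.7 and 738, 538.2 and 618.7, and 165.1 and 191.5. It fell by 1.77 on the log2 scale with E9 (SE 0.108, limma adjusted p = 5.78e-06). A dimmer further probe of Stat5a had a log2 fold change of -0.977 with E9 (SE 0.097, limma adjusted p = 0.000127 over 20349 probes). Whether the listed regulators act on the members in these cells was not tested.

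Ddit3, which encodes the stress factor CHOP, an inducer of Bcl2l11, read 80.2 and 78.2 with DMSO, 63.7 and 74.7 with epoxomicin, and 252.9 and 242.6 with E9. It rose with E9 with a log2 fold change of 1.38 ± 0.0737 (SE, limma adjusted p = 2.64e-06). In the direct comparison, Ddit3 and Il7r were lower with epoxomicin than with E9 (log2 fold changes -1.53 and -1.07) and Stat5a and Foxo3 higher (1.57 and 0.30). Not all further probes of Il7r passed there, while the further probes of Ddit3 and Stat5a did. Foxo3 encodes a FOXO factor, the family whose letters were searched in the windows above. Myb, which read from 36.3 to 51.9, fell by 0.26 on the log2 scale with E9 (limma adjusted p = 0.0227), near the limit, and its 2 further probes did not pass.

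**Figure D4:**
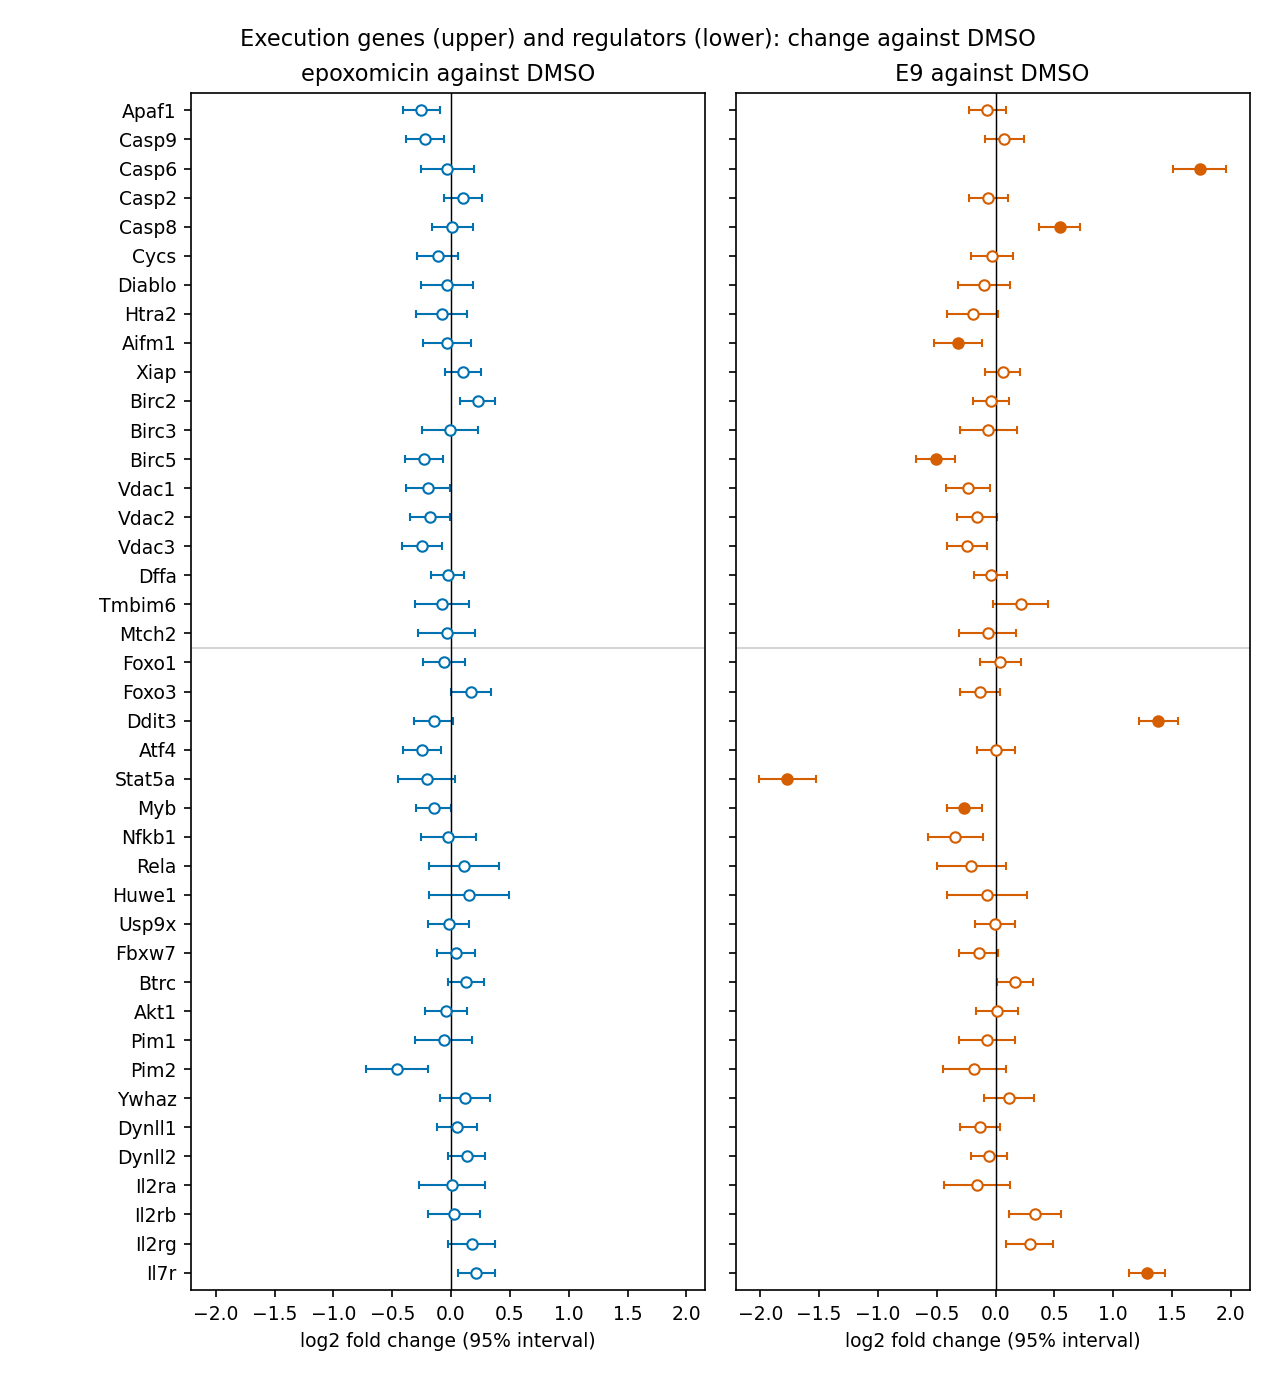
Log2 fold change against DMSO with its 95% interval (horizontal axis, unadjusted) for 19 genes of mitochondrial apoptosis execution, above the line, and 22 known regulators of the members, below it, with epoxomicin on the left and E9 on the right. Filled points have an adjusted p under 0.05. With E9, Casp6 (1.74), Ddit3 (1.38) and Il7r (1.29) lie farthest to the right and Stat5a (-1.77) farthest to the left, while no point is filled with epoxomicin.

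Genes of like pattern were looked for with the pro-survival and the pro-death gene of smallest overall p, Bcl2l1 and Bcl2l11. Over the 6 arrays, the log2 intensity of Bcl2l1 was most like that of Rnf19a, Cd83 and Txnrd3 (Pearson r 0.999, 0.999 and 0.998), the top 3 of 12755 genes. Cd83 is a surface protein of activated lymphocytes. It read 399 and 380.4 with DMSO, 381 and 365.4 with epoxomicin, and 71.4 and 70.5 with E9, so that its pattern, like that of Bcl2l1, is a step between E9 and the rest. Bcl2l11 was most like Aig1, Slc25a37 and Xdh (Pearson r 0.994, 0.993 and 0.987). With 3 groups on 6 arrays many genes share such a step, and these values are a description with no test.

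Markers of the cells moved with the treatments, and their part in the results above was not tested. Of 8 CD8 T cell markers 7 were measured, and 6 rose with E9, where 7.76% of all genes rose. The summed intensity of the 7 was 23326 to 23928 with E9, 15642 to 16011 with DMSO and 17622 to 18052 with epoxomicin. Cd8b1 read from 4752.9 to 7588.1, while the probe of Cd8a stayed near the limit at 36.5 to 48.5. Of 4 CD4 T cell markers 3 were measured: Cd4 lay around the limit, at 32.2 to 37, while Foxp3, the factor of regulatory T cells, read from 246.8 to 317 and fell by 0.24 on the log2 scale with E9 (limma adjusted p = 0.0423). Of 12 B cell markers 8 were measured. Of these, 5 fell with epoxomicin and 2 with E9, where 0.58% and 7.81% of all genes fell. Their sums were 951 to 1098 with epoxomicin, 1295 to 1463 with DMSO and 1473 to 1584 with E9. Cd22 and Blk were below the limit on all arrays and Ms4a1 and Pax5 around it, at 29.5 to 35.8. Cd79b, Igkc and Ighm were above it on all 6 arrays. Cd79b read from 57.8 to 117.3 and fell with both compounds. Igkc read from 48.1 to 377.7 and fell by 1.69 on the log2 scale with epoxomicin, and Ighm read from 598.9 to 891.2. Cd74, H2-Aa and H2-Ab1 fell with epoxomicin (log2 fold changes -0.58, -0.43 and -0.79), and H2-Ab1 also with E9 (-1.01). Of 6 NK cell markers 3 were measured. Klra4, near the limit on the DMSO arrays, rose with E9 (0.26), and Nkg7 was higher with epoxomicin than with E9 (0.42). Of 10 myeloid markers 5 were measured, near the limit, with sums of 195.1 to 197.9 with E9, 166 to 174.7 with DMSO and 154.9 to 164.5 with epoxomicin, and S100a8 rose with E9.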

How the data were processed

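The authors deposited Illumina bead-array intensity values on a linear scale for 45281 probes and 6 arrays. Their sorted values were identical in all columns, as quantile normalization leaves them, so that a change in total RNA per cell cannot be seen. The software, background step and scanner are not given in the sources used here. A second table of 6 columns whose names match no sample label was not used.

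Probes were named from GEO's platform annotation, updated through RefSeq (35728 of 35784 with a symbol). The background limit of 34.5 is the mode of the intensities (30.7) plus the one-sided 0.05 point of their spread below it (SD 2.34). Intensities were background-corrected with normexp (offset 50), log2-transformed and fitted with limma 3.58.1 in R 4.3.3 as 3 groups without a block. Probes over that limit on 2 or more arrays were kept, and 12756 genes were tested. The design has 3 residual degrees of freedom, to which limma's moderation of the spread over all genes adds 6.31. Even so, 2 arrays per group limit the precision. Only the model fit and its calls were tried on simulated gene values. Background correction, the probe filter and the choice of probe were not tested in that way.

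Members and lists were chosen with earlier results of these data known. All 10 members were named whatever their values, all measured genes of the other BCL2 family list, and of the other lists up to 6 genes of smallest adjusted p among those passing. For the members with the smallest overall p, 1 pro-survival and 1 pro-death, the 3 genes of highest Pearson correlation were named. Alternatives were another background setting, filter, probe rule, model or scaling, a replicate block and leaving out each array. Promoter letters were taken from RefSeq (GRCm38.p6). No Pmaip1 sequence is shown.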

Additional observations from a re-analysis of the deposited data

How the results depend on the processing

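The number of members changed with epoxomicin against DMSO was 0, where 168 of 12756 genes changed. It became 1 (Bcl2l11) in a fit of the compared groups alone (234 of all genes) and with median-centred arrays (163 of all genes). Leaving out 1 array at a time it ran from 0 to 1, with 1 when either E9 array was left out, since a lone E9 array adds nothing to the spread. At an unadjusted p under 0.05, Bcl2l11, Mcl1 and Bad passed that comparison, beside 11.4% of all genes. With E9 against DMSO the number was 3, and 1 (Bcl2) when at least a 2-fold change was also asked for, where 162 of 12756 genes passed. Between epoxomicin and E9 the number was 2. Leaving out 1 array gave 3 to 3 and 2 to 2. With the replicate number as a block the counts stayed at 0, 3 and 2. Whether the numbers pair the arrays is not labelled. The correlations of the replicate deviations between groups (0.219, -0.324 and -0.205) cannot decide it, since each group gives only 1 such deviation.

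Of 486 single values of members under an alternative, 454 kept their direction and side of the threshold, 0 that passed changed sign, 2 lost the call (Bcl2l1 and Bcl2l11 at 2-fold), 8 gained one and 22 that passed neither way changed sign. The log2 fold change with E9 ran from 0.963 to 1.29 for Bcl2, -1.15 to -0.789 for Bcl2l1 and 0.405 to 0.631 for Bcl2l11. Each passed in every alternative that kept all arrays and set no fold limit. With probes taken singly, the probe of smallest adjusted p stood for its gene. The fourth probe of Bcl2l11 did not pass (log2 fold change 0.10, limma adjusted p = 0.412). Some of the 486 values repeat others: leaving out an array of the group not compared gave the same values as the fit of the compared groups alone. Bcl2l11 differed between epoxomicin and E9 in the mean of its probes (adjusted p = 0.0497) and by 1 of its further probes (adjusted p = 0.011).

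Over all genes the calls were 168 with epoxomicin, against 90 with the block, 4 at 2-fold and 1 to 29 without a DMSO or epoxomicin array. They were 1986 with E9, against 1200 and 1276 without a DMSO array and 162 at 2-fold, and 1662 between the compounds, against 931 without an epoxomicin array and 162 at 2-fold. Matching names without older symbols was chosen after seeing the data and changed no count of members. Groups of 2 arrays limit the precision, and a fall of a probe near the limit, such as that of Pmaip1, would be hard to see.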
